A study of Caenorhabditis elegans with 3 samples.

Results

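The FMRFamide-like peptide genes of Caenorhabditis elegans carry an flp symbol, and 31 of them were found among the 20392 measured genes by matching each gene's sequence name to its symbol and keeping symbols made of flp and a number. Whole worms of the wild-type strain N2 Bristol were measured as 1 group of 3 libraries, with no other genotype, treatment or stage. The worms had been synchronized, fed OP50 bacteria at 25 °C and taken at mid-L4, the last larval stage, at the 29 h time point. The submitters call the replicates independent without saying whether they came from separate cultures, so the SD over 3 libraries may hold technical as well as biological spread. N2 cultures are mostly hermaphrodites, and each library pools many animals and every tissue, so less RNA per neuron and fewer neurons cannot be told apart. Values are TPM, a transcript abundance scaled to transcript length and to the library total. The read depth behind them is unknown. Positions are from the WBcel235 annotation, which may not be the build the authors used.

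FMRFamide-like peptides are short signalling peptides that end in an amidated arginine and phenylalanine. They are cut from longer precursors inside neurons, trimmed, amidated, packed into dense core vesicles and released to act mostly on G protein-coupled receptors. In the nematode they are known for roles in locomotion, egg laying, feeding, sleep, mating and fat metabolism, and most flp genes are transcribed in small sets of neurons.

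Nearly the whole family was present. Taking at least 1 TPM in every library as detected, 30 of 31 flp genes were detected, beside 61.1% of all measured genes and 62.3% of protein-coding genes. The family median of log2(TPM + 1) was 3.84 ± 0.07 (SD, n = 3), and the median over all genes was 2.13 ± 0.05. A mean of at least 10 TPM was reached by 21 of the 31, beside 29.9% of all genes. Summed over the family, the level was 444 TPM in replicate 1, 495 in replicate 2 and 518 in replicate 3, or 0.0486% ± 0.00378 (SD, n = 3) of the library total. In each library the 5 leading members held 34.7% ± 1.82 of that sum, and flp-1 alone made up 8.39% of it.

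The libraries themselves differed in molting and sperm genes, and no library was left out. The 9 epidermal and molting markers summed to 1023, 557 and 182 TPM in replicates 1, 2 and 3 and the 5 sperm markers to 216, 87.7 and 54.5 TPM. All 14 of these genes were highest in replicate 1 and lowest in replicate 3. Markers of body wall muscle (5 of 5 detected, 3109 to 3154 TPM summed), of the germ line (4 of 4, 155 to 164 TPM) and of the intestine (5 of 5, 2556 to 2917 TPM) stayed within narrower ranges. All 10 neuron markers were detected, with sums of 163, 160 and 169 TPM. Of 5 glial markers 3 were detected. The sum over all 5 went from 33.8 and 31.4 TPM in replicates 1 and 2 to 19.0 TPM in replicate 3. This fall came mostly from ptr-10 (20.5, 18.8 and 10.03 TPM) and fig-1 (11.3, 10.6 and 6.66 TPM). The remaining detected glial marker, kcc-3, went the other way and was highest in replicate 3, at 1.96 TPM.

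**Figure D1:**
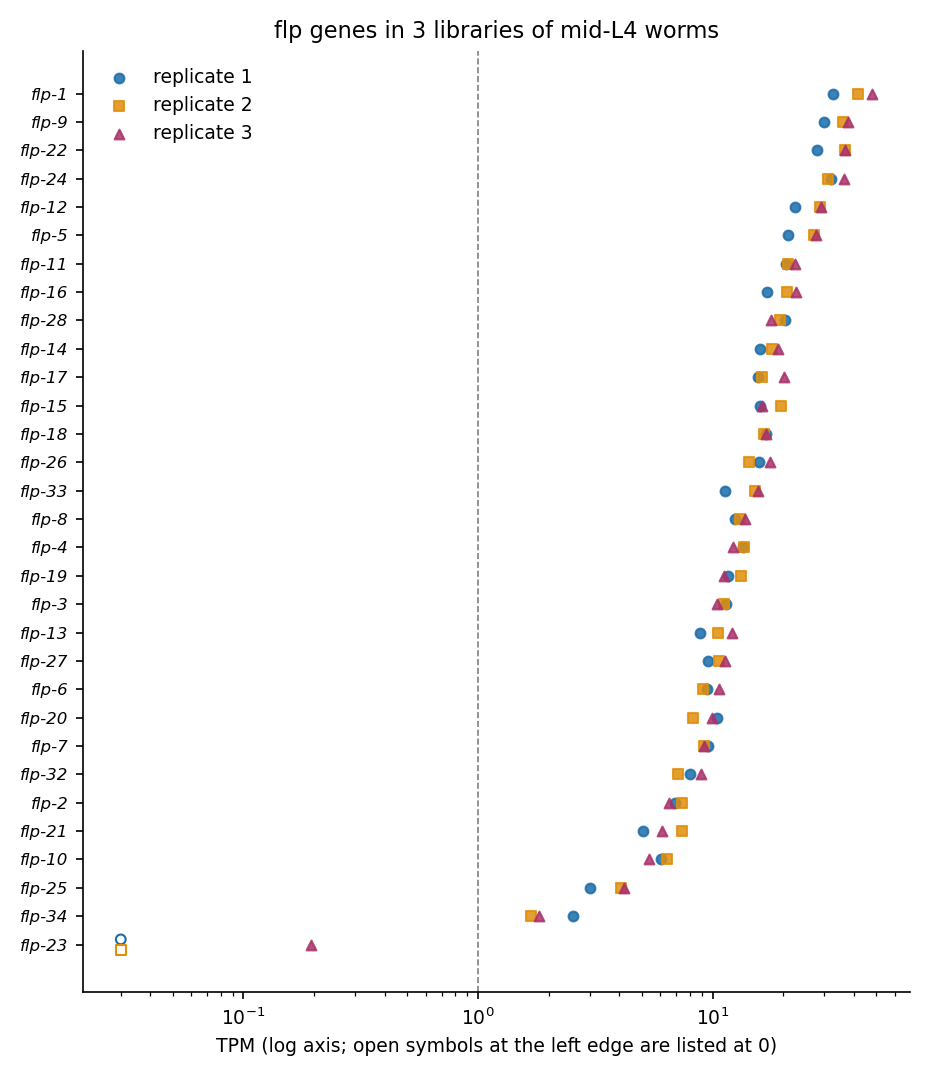
TPM of the 31 flp genes in each of the 3 libraries on a log axis, ordered by their mean, with the detection limit of 1 TPM as a dashed line. flp-1 stands at the top with 32.7 to 47.9 TPM, 30 genes lie to the right of the limit, and flp-23 is at 0 in 2 libraries and at 0.194 TPM in the other.

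The gene at the top of the family was flp-1 (F23B2.5, chromosome IV, 9144705 to 9146128), the flp gene whose loss makes worms wander and move in an uncoordinated way. It had 32.7 TPM in replicate 1, 41.6 in replicate 2 and 47.9 in replicate 3 (mean 40.8 ± 7.64, SD, n = 3). That put it first within the family in all 3 libraries and 1928th among all genes. Its lead over the next gene was 1.02-fold in replicate 1, where flp-24 came second, 1.13-fold in replicate 2, where flp-22 did, and 1.27-fold in replicate 3, where flp-9 did. The runners-up could not be ordered. The gene flp-9 (C36H8.3, chromosome IV, 12754558 to 12757570) had 29.97, 35.999 and 37.7 TPM, and flp-22 (F39H2.1, chromosome I, 8658899 to 8659967) had 27.9, 36.8 and 36.6 TPM. With 32.1, 31.2 and 36.3 TPM for flp-24 (C24A1.1, chromosome III, 725119 to 726155), the ranges of all 3 overlapped.

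The next in order of means was flp-12 (C05E11.8, chromosome X, 4591281 to 4592350) at 22.4, 28.6 and 28.9 TPM, whose highest library stayed under the lowest of flp-24 but not under the lowest of flp-22. It took the place after these 4 in every library, and flp-5 (C03G5.7, chromosome X, 8528250 to 8531076) followed it in every library, at 21.04, 27.1 and 27.7 TPM. The remaining members of the 10 most abundant lay close together. The sleep gene flp-11 had 20.5, 21.1 and 22.4 TPM, flp-16 (F15D4.8, chromosome II, 13235306 to 13237417) 17.1, 20.8 and 22.7, flp-28 (W07E11.4) 20.3, 19.3 and 17.7 TPM, and flp-14 (Y37D8A.15, chromosome III, 12910510 to 12914783) 15.97, 17.9 and 19.1. Their ranges overlapped from each gene to the next.

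The largest class by level, 13 members, had means from 10.5 to 19.1 TPM: flp-28, flp-14, flp-17, flp-15, flp-18, flp-26, flp-33, flp-8, flp-4, flp-19, flp-3, flp-13 and flp-27 in falling order. A further 7, flp-6, flp-20, flp-7, flp-32, flp-2, flp-21 and flp-10, had means from 5.93 to 9.75 TPM. Of the 30 pairs of neighbours in the order of means, 5 had ranges that did not overlap, and 11 stood in the same order in all 3 libraries. The separated pairs were flp-24 above flp-12, flp-7 above flp-32, flp-10 above flp-25, flp-25 above flp-34 and flp-34 above flp-23. The order as a whole was nearly the same in each library (Spearman's rho across the 31 genes 0.980 between replicates 1 and 2, 0.965 between 1 and 3 and 0.978 between 2 and 3, as a description). Between the mean TPM and the length of the longest annotated transcript rho was -0.0067 over the 31 genes.

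At the bottom were 3 genes. The gene flp-25 (K04H4.7, chromosome III, 9361528 to 9365380) had 3.01, 4.06 and 4.18 TPM. Less abundant again was flp-34 at 2.53, 1.68 and 1.82 TPM. The member that was not detected was flp-23 (F22B7.2, chromosome III, 8650767 to 8652194), listed at 0 in replicates 1 and 2 and at 0.194 TPM in replicate 3. Between the highest and the lowest detected member, flp-1 and flp-34, the means differed 20.3-fold.

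The genes known for sleep spanned the upper and middle part of the family. Peptides of flp-11 come from RIS, the neuron that switches on sleep during the larval molts, and those of flp-13 and flp-24 from ALA, the neuron of sleep after cell stress. The gene flp-11 (K02G10.4, chromosome X, 4677334 to 4678129) averaged 21.3 ± 0.987 TPM (SD, n = 3). For flp-24 the mean was 33.2 ± 2.70 TPM. The third sleep gene, flp-13 (F33D4.3, chromosome IV, 7696932 to 7698420), was lower, with 8.83, 10.6 and 12.1 TPM. The ranges of the 3 sleep genes did not overlap. All 3 were highest in replicate 3, as were 17 of the 30 detected flp genes and 40.2% of all detected genes. The gene flp-2 (W07E11.3, chromosome X, 10094430 to 10095245), whose peptide is known for promoting arousal, had 6.93, 7.40 and 6.53 TPM, under every sleep gene in every library.

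Ligands of NPR-1, the receptor that keeps N2 worms from gathering on food, are encoded by flp-18 and flp-21, which differed in level. The gene flp-18 (Y48D7A.2, chromosome X, 3012182 to 3018555) had 16.9, 16.6 and 16.9 TPM, a coefficient of variation of 1.10%, the smallest in the family. The gene flp-21 (C26F1.10, chromosome V, 7793367 to 7794025) had 5.03, 7.44 and 6.07 TPM, with a coefficient of variation of 19.5%. In each library flp-18 was the higher, and the ranges were far apart.

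Ligands of EGL-6, the receptor through which peptides inhibit egg laying, are encoded by flp-10 and flp-17. Levels of flp-17 (C52D10.11, chromosome IV, 17190204 to 17191891), a gene of the carbon dioxide-sensing BAG neurons, were 15.7, 16.2 and 20.1 TPM. Those of flp-10 (T06C10.4, chromosome IV, 7868907 to 7870081) were 6.004, 6.42 and 5.35 TPM. The ranges did not overlap, with flp-17 above flp-10 in 3 of 3 libraries.

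The gene flp-7 (F49E10.3, chromosome X, 5885865 to 5886833), whose peptide signals from neurons to the intestine in fat loss, had 9.52, 9.18 and 9.22 TPM. Its coefficient of variation was the second smallest of the detected members. The gene flp-34 (R09A1.5, chromosome V, 1027891 to 1033404), known for a role in learned avoidance of odours, was the detected member that varied most, at 22.7%. It has an annotated transcript of 145 nt, and no other member has one under 300 nt.

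Genes known for a part in the turning step of male mating were present in these mostly hermaphrodite cultures. The 4 genes of this list, flp-8, flp-10, flp-12 and flp-20, were all detected, and all are also transcribed in neurons outside the male tail. Levels were 12.5, 13.1 and 13.8 TPM for flp-8 (F31F6.4, chromosome X, 14881419 to 14882267). For flp-20 (E01H11.3, chromosome X, 9349276 to 9349894), a gene of the touch receptor neurons, they were 10.5, 8.28 and 9.97 TPM. Together with flp-10 and flp-12 the list summed to 51.4, 56.5 and 58.1 TPM.

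None of the 30 detected members differed 2-fold between its highest and lowest library, beside 15.4% of all detected genes and 16% of the 9640 detected genes whose means lay within the range of these members. A range of at least 1.5-fold was seen in 1 member, flp-34 (1.51-fold), beside 28.5% of detected genes. The median coefficient of variation was 10.5% for the members and 12.1% for all detected genes. Without replicate 1 these were 6.08% and 8.88%, without replicate 2 9.09% and 12.7%, and without replicate 3 7.83% and 9.59%. A small spread was not particular to the family. Over all 3 libraries the median was 7.21% for the 10 neuron markers and 6.58% for the 13 peptide processing genes. No gene of either list had a 2-fold range. After flp-34 and flp-21 the most variable members were flp-1 at 18.8%, flp-25 at 17.1% and flp-33 (T07D10.6, chromosome I, 12624234 to 12625238) at 16.7%. The last had 11.4, 15.1 and 15.7 TPM. The least variable after flp-18 and flp-7 was flp-11 at 4.63%.

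**Figure D2:**
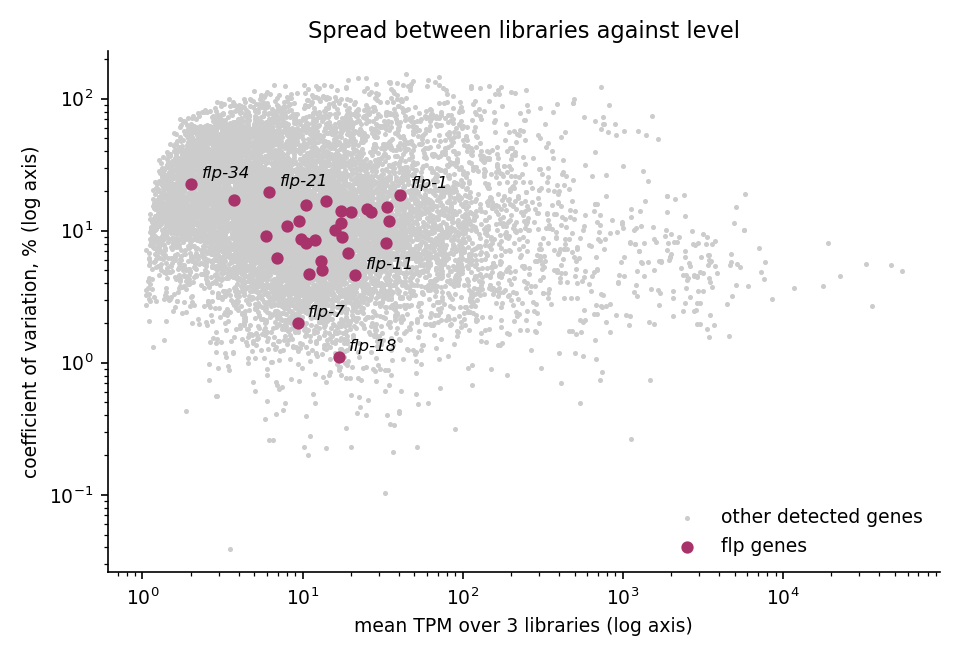
Coefficient of variation over the 3 libraries against mean TPM, both on log axes, for detected genes; flp genes are the coloured points and all other detected genes are grey. The 30 flp genes run from 1.10% (flp-18) to 22.7% (flp-34), and the grey cloud reaches much higher at the same levels.

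More members had their highest value in replicate 3 than in either other library. The highest value was in replicate 3 for 17 of the 30 detected members, in replicate 2 for 7 and in replicate 1 for 6, while over all detected genes the shares were 40.2%, 20% and 39.8%. The lowest value was in replicate 1 for 16 members, beside 38.3% of detected genes. The median log2 ratio of replicate 3 to replicate 1 was 0.17 over the members and 0.01 over all detected genes. At the ends of its range, flp-34 was 1.39-fold higher in replicate 1 and flp-1 was 1.46-fold higher in replicate 3. Between other pairs of libraries, 20 members were higher in replicate 2 than in replicate 1 and 21 in replicate 3 than in replicate 2, beside 46.7% and 52.2% of detected genes. Neuron markers had a median of 0.15, with 7 of 10 higher in replicate 3, and the 13 peptide processing genes one of 0.02. Detected nlp genes, described further on, had a larger median of 0.25, with 46 of 65 higher in replicate 3, beside 20 of 30 flp genes. Relative to the summed neuron markers, the family stood at 2.72, 3.10 and 3.06 in replicates 1, 2 and 3. Molting markers went the other way, with a median log2 ratio of -3.21 and 9 of 9 lower in replicate 3, and their part in the flp differences was not tested.

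The count can be divided by level and by chromosome. Among the 15 detected members at or above the median of the detected members, 13 were higher in replicate 3 than in replicate 1 (beside 51.7% of all detected genes), with a median log2 ratio of 0.33. Among the 15 below it, 7 were, with a median of -0.05. By chromosome, 14 of 17 autosomal members were higher in replicate 3 (median 0.27) and 6 of 13 X-linked members (median -0.0003). The share of 51.7% is over detected genes of every level. Shares over all detected genes at the levels of each subset, or on autosomes and on X, were not computed. The counts of neither division can therefore be read as particular to the family. No test of the difference between these subsets was made, and both divisions are of the same genes. Median levels were similar on X (13.1 TPM) and on autosomes (13.6 TPM, flp-23 included).

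**Figure D3:**
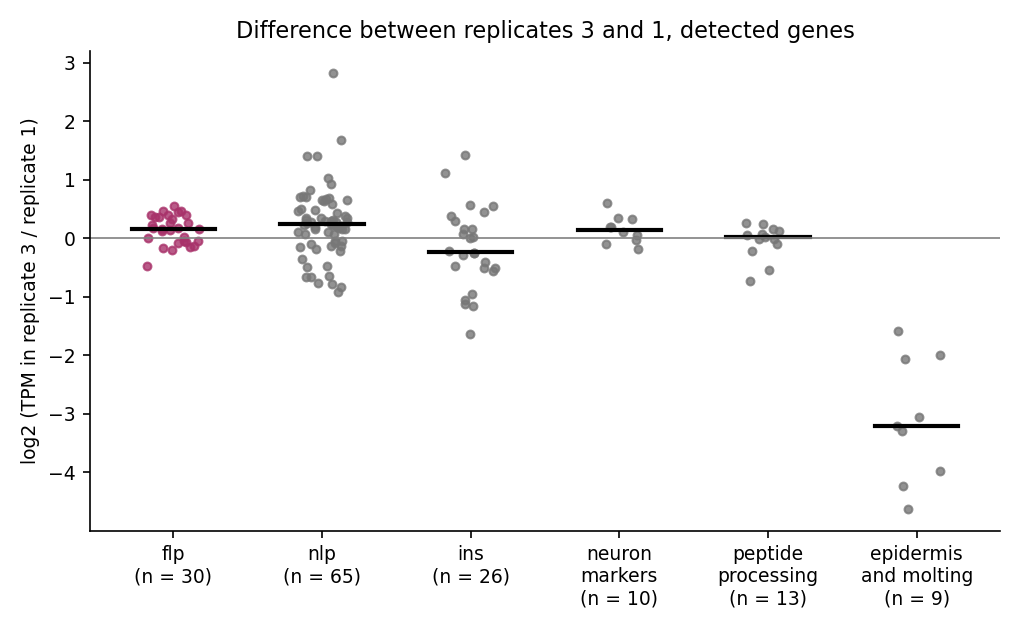
Log2 ratio of TPM in replicate 3 to replicate 1 for detected flp, nlp and ins genes, neuron markers, peptide processing genes and epidermal and molting markers; each point is a gene and the bar is the median. The flp genes stay between -0.47 and 0.55, while nlp genes reach 2.84 and the 9 epidermal and molting markers lie between -4.63 and -1.58.

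Both other peptide families had members far above the flp range. Genes with an nlp symbol, the neuropeptide-like protein genes, had 65 of 71 members detected, and genes with an ins symbol, the insulin-like peptides, 26 of 38. The median of log2(TPM + 1) was 3.48 ± 0.06 (SD, n = 3) for nlp and 2.64 ± 0.07 for ins, both under the 3.84 of flp. Their highest members stood at 393 TPM for nlp-34 and 438 TPM for ins-27. In the ins family 5 genes held 79.4% of the family's mean TPM and in the nlp family 50.4%, beside 34.8% for flp computed the same way. A 2-fold range between libraries was found in 8 of 65 nlp genes and 8 of 26 ins genes, beside 0 of 30 flp genes. These are counts and medians of whole families in the same libraries, and no test was made between them.

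**Figure D4:**
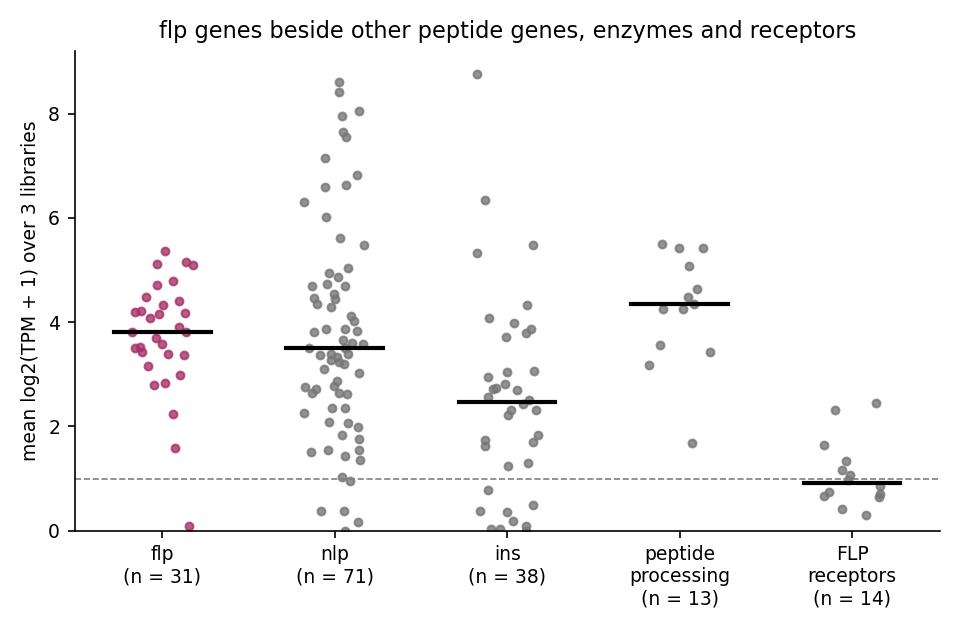
Mean log2(TPM + 1) over the 3 libraries for every flp, nlp and ins gene, the 13 peptide processing and vesicle genes and the 14 genes of FLP receptors; each point is a gene, the bar is the median, and the dashed line marks 1 TPM. Mean TPM of the detected flp genes runs from 2.01 to 40.8, with flp-23 below the line, and that of the receptor genes from 0.239 to 4.56.

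Genes listed for peptide processing and dense core vesicles, of enzymes and other proteins, had a higher median level than the flp genes. All 13 genes of the processing and dense core vesicle list were detected, with a summed level of 293, 298 and 291 TPM and a median log2(TPM + 1) of 4.44 ± 0.005 (SD, n = 3), beside 3.84 ± 0.07 for the flp genes. The proprotein convertase gene egl-3, whose enzyme cuts precursors at basic residues, had 20.3, 21.97 and 22.02 TPM. Its chaperone gene sbt-1 had 40.3, 43.7 and 41.8 TPM, and the carboxypeptidase gene egl-21, which removes the exposed basic residues, 31.8, 34.9 and 32.2. Amidation, the step that completes the RFamide end, is served by pgal-1 (40.7, 40.3 and 45.2 TPM), pghm-1 (23.4, 23.6 and 24.5) and pamn-1 (21.96, 20.2 and 13.2). The highest of the list was unc-108, a Rab GTPase gene of vesicle maturation, at 44.5 ± 0.779 TPM (SD, n = 3), and the lowest was rund-1 at 2.20 ± 0.161. Summed flp TPM over summed TPM of this list was 1.52, 1.66 and 1.78 in replicates 1, 2 and 3. Most of these genes are not used by FLP-producing neurons alone.

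Receptor genes were much less abundant than the peptide genes. Of 14 genes of receptors that bind FLP peptides, 3 were detected, beside 61.1% of all genes, and 0 were listed at 0 in all libraries. The 3 were dmsr-1, a receptor of FLP-13, at 3.59, 4.28 and 5.81 TPM, npr-5, a receptor of FLP-18, at 3.82, 3.77 and 4.37 TPM, and dmsr-7, a receptor of FLP-1, at 1.91, 2.09 and 2.43 TPM. The lowest was npr-11, a receptor of FLP-34, at 0.267, 0.186 and 0.262 TPM. For npr-1 the values were 0.173, 0.322 and 0.508 TPM. The mean of npr-10 was 0.970 ± 0.0175 TPM, just under the limit. Means of npr-22, frpr-4 and npr-3 were 1.56, 1.27 and 1.10 TPM. They were not counted as detected because replicate 1 was under 1 TPM.

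In 14 known peptide and receptor pairs, made of 10 flp genes and 12 receptor genes, the peptide gene was the more abundant in 3 of 3 libraries. The median was 0.892 TPM over the receptor genes and 13.1 TPM over the flp genes. The count thus follows largely from the levels of both groups and is not evidence about the pairing. Other pairings were not computed. The mean ratio over libraries ran from 2.34 ± 0.220 (SD, n = 3) for flp-13 over dmsr-1 to 73.9 ± 18.4 for flp-1 over npr-6. Among the paired receptor genes only dmsr-1, npr-5 and dmsr-7 were detected. All other ratios divide by a receptor gene not counted as detected, such as npr-6 at 0.504, 0.438 and 0.778 TPM, and their size is uncertain. The same receptor was met by unequal ligands: over egl-6, flp-17 stood at 23.1, 21.4 and 32.9-fold and flp-10 at 8.82, 8.47 and 8.75-fold. Over npr-1, flp-18 stood at 97.6, 51.5 and 33.2-fold and flp-21 at 29.1, 23.1 and 11.9-fold, while npr-1 itself ranged from 0.173 to 0.508 TPM. The lowest detected peptide gene and the lowest receptor gene form a pair, flp-34 and npr-11, and its ratio was 8.48 ± 1.34. RNA ratios in whole animals say nothing of the amounts of peptide or receptor in one cell.

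**Figure D5:**
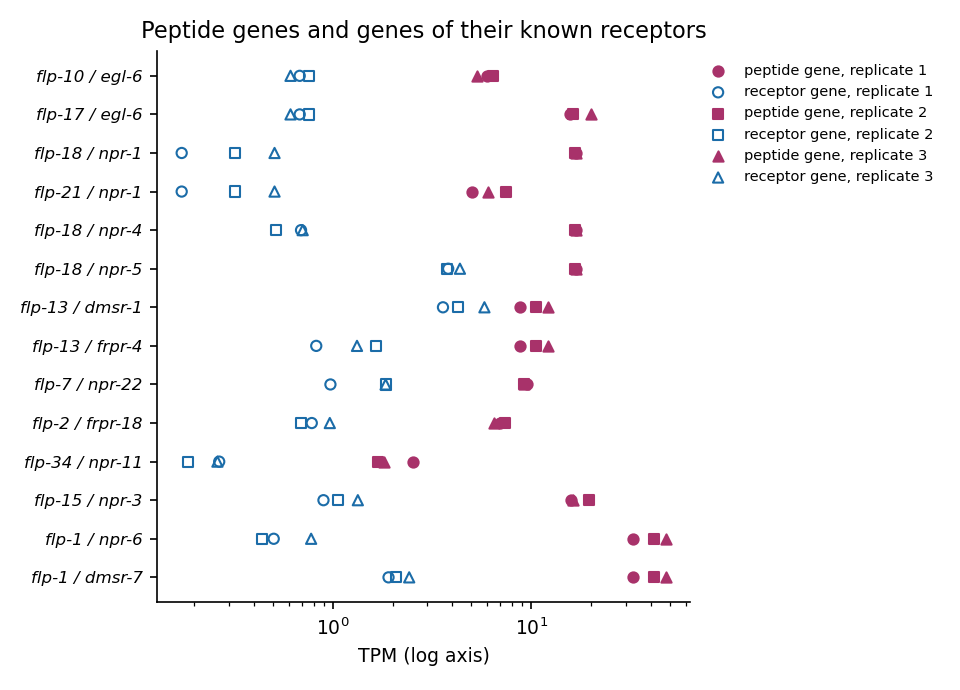
TPM, on a log axis, of the peptide gene (filled symbols) and the receptor gene (open symbols) of 14 known pairs in each library. The filled symbols lie to the right of the open ones in every pair, with the smallest gap for flp-13 and dmsr-1.

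By annotated position, 13 of the 31 genes lie on X (41.9%), beside 13.6% of all matched genes, 26.8% of nlp genes and 5.26% of ins genes. Chromosomes III and IV hold 5 each, II and V 3 each and I 2. All 13 X-linked members were detected, with a median of 13.1 TPM, and the 18 autosomal members, flp-23 included, had a median of 13.6 TPM. Among all detected genes the medians were 6.98 TPM on X and 10.1 TPM on autosomes. The 4 highest members and the 5 lowest, flp-21, flp-10, flp-25, flp-34 and flp-23, are all autosomal.

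A group of X-linked genes are close neighbours. The genes flp-28 (10087314 to 10087966), flp-3 (W07E11.2, 10091946 to 10092964) and flp-2 lie on the minus strand, with 3979 bp between flp-28 and flp-3 and 1465 bp between flp-3 and flp-2, and no other measured gene lies wholly in these gaps. All 3 lie inside the span of W07E11.1 on the plus strand without overlapping any of its exons. Their levels were unequal, at 19.1 ± 1.29 TPM (SD, n = 3) for flp-28, 10.99 ± 0.517 for flp-3, with 11.4, 11.2 and 10.4 TPM in the libraries, and 6.95 ± 0.435 for flp-2, and the ranges did not overlap. The host gene had 17.6, 17.9 and 13.7 TPM. All 4 genes were lowest in replicate 3, beside 36.3% of detected genes.

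Also nested are autosomal members that lie in the span of a gene on the other strand with no shared exon, namely flp-1 in daf-10 (0.294, 0.326 and 0.441 TPM), a gene of ciliary transport, and flp-27 (C25H3.5, chromosome II, 5681003 to 5682667) in C25H3.11. The level of flp-27 was 10.5 ± 0.845 TPM (SD, n = 3). Exon overlaps with measured genes on the other strand were short, at 17 bases for flp-11, 14 for flp-16, 8 for flp-33 and 5 for flp-19. The partner of flp-16, romo-1, had 205 to 214 TPM. Whether the quantification used strand is not given in the sources used here.

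As annotated, the family is made of short genes. The longest transcript measured 422 to 973 nt with a median of 633 nt, and the longest coding sequence gave precursors of 66 to 208 residues with a median of 95. Exon numbers ran from 2 to 8, the latter in flp-18, which also has the longest precursor. In 20 members 1 transcript is annotated, and 5 members have transcripts with more than 1 coding length. Because values are summed per gene, the forms of flp-1, which has 3 coding lengths, cannot be told apart. No member had values identical to those of another gene. Reads shared with similar sequences were not examined.

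The remaining members are given by their means. The gene flp-15 (ZK525.1, chromosome III, 13663400 to 13667839), whose peptide activates NPR-3, averaged 17.3 ± 1.99 TPM (SD, n = 3), and flp-26 (R173.4, chromosome X, 7029136 to 7029640) 15.9 ± 1.61. The means of flp-4 (C18D1.3, chromosome II, 10048868 to 10055594) and flp-19 (M79.4, chromosome X, 10604686 to 10605831) were 13.1 ± 0.773 and 12.01 ± 1.02 TPM. Lower were flp-6 (F07D3.2, chromosome V, 9471975 to 9473792) at 9.75 ± 0.840 and flp-32 (R03A10.2, chromosome X, 15433787 to 15434972) at 8.01 ± 0.872 TPM.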

How the data were processed

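Total RNA of 3 libraries was depleted of ribosomal RNA and made into stranded libraries, per the labels' protocols. The reads were quantified with kallisto, per the submitters' processing notes. Neither its version nor the index and annotation behind it are given in the sources used here. Deposited values are TPM per gene, computed by the authors for each library, and each column sums to 1000000. The authors' mean column differed from the mean of the libraries by at most 6.67e-06 TPM. Because read counts cannot be had from TPM, intervals and floors were not computed.

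Looking up each sequence name in the Ensembl annotation (release 115, WBcel235) gave gene identifiers and positions for 20136 of 20392 genes and for all 31 flp genes. Positions describe that build. Symbols came from a list of gene names, and where it gave none from Ensembl and then RefSeq. Levels were described as TPM or log2(TPM + 1), with Python 3.11.15, numpy 2.4.6 and pandas 2.3.3. With 1 group there was no comparison between conditions and no test was made. The members, gene lists and the rule for naming genes (the 10 highest, 3 lowest, 5 most and 3 least variable and all with a listed role) were chosen with earlier results of these data known. The receptor pairs were set after the files had been read. Only the 2-fold range and the naming of the highest library were tested on simulated data, with genes shifted by a known amount and little noise. Alternatives were other detection limits, pseudocounts, filters, totals, rescaling by median-of-ratios, and leaving out each replicate.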

Additional observations from a re-analysis of the deposited data

How the results depend on the processing

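The number of detected flp genes was 30 at limits of 0.5 and 1 TPM and 28 at 5 TPM, and no detected member had a 2-fold range under any alternative run. The family median was 3.74 with a pseudocount of 0.1, 4.19 with 5, and 3.74 as a mean of members. The family's share was 0.110% without the 100 most abundant genes and 0.0735% without genes that have a transcript under 300 nt, which drops flp-34; these totals are smaller by construction. Leaving out each replicate gave a median coefficient of variation of 6.08% (without replicate 1) to 9.09%. With 2 libraries left, replicate 1 was the higher in 10 members either way (10 to 10), replicate 2 in 9 to 20 and replicate 3 in 20 to 21. Median-of-ratios factors lay between 0.999 and 1.01. The ratio of summed flp TPM in replicate 3 to replicate 1, 1.17, was 1.12 relative to the summed neuron markers. Gene by gene, the median log2 ratio was 0.17 for flp genes and 0.15 for neuron markers. The ratio to neuron markers was an alternative chosen after seeing the data, as were the counts with 2 libraries left. Amidated motifs per precursor were not run. No paired analysis was possible because there was 1 group. Low members, such as flp-34 and most receptor genes, are limited by unknown depth.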
